A study of Mus musculus with 8 samples.

Results

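Macrophages taken from mice 4 h after LPS were compared with macrophages taken 4 h after saline, across genes and, where the transcripts of a gene differed, across transcripts. The members were chosen by the treatment written in the labels, which gives 4 of the 8 libraries of the study: LPS replicates 1 and 2 and Saline replicates 1 and 2. The mice were C57BL6 males aged 7 weeks with no allele or transgene named in the labels, and the stimulus was given in the peritoneal cavity. The other 4 libraries came from mice given interferon beta (IFNb) for 4 h, or IFNb for 4 h and then LPS for 4 h. The sources used here name neither the dose and type of LPS nor a step that purified the macrophages, which the labels call peripheral. No label states that the 2 libraries in a group are from different animals, so every p-value below measures the spread between libraries, which may be technical.

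LPS, the lipid-anchored sugar of the outer membrane of Gram-negative bacteria, is handed by LBP and CD14 to the receptor TLR4 and its partner MD-2. TLR4 signals from the cell surface through the adaptors TIRAP and MYD88 to NF-kB and the MAP kinases, and from endosomes through TICAM2 and TICAM1 to IRF3 and the production of type I interferon, which then acts back on the same cells through JAK-STAT signalling. Macrophages answer within hours with secreted cytokines and chemokines, with antiviral genes and with inhibitors that limit the response.

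Each library was deposited as TPM, a length-corrected abundance that has the same sum in every library. Differences are LPS minus saline on the log2(TPM + 1) scale, given ± SE from limma, with p adjusted over 13009 tested genes. The SE and p use a spread pooled over all 8 libraries, not over the LPS and saline libraries alone. That scale understates the change of genes with low TPM. In the TPM as deposited 1664 genes (12.8%) were higher with LPS and 5368 (41.3%) were lower, and the median difference of all tested genes was -0.38. After median-ratio scaling that median was 0.01, a shift of 0.39, with 2718 genes higher (20.9%) and 2254 lower (17.3%). Upper-quartile scaling gave 1984 higher and 3916 lower, with a median of -0.22. In what follows a gene rose or fell only if it was called with both the deposited and the median-ratio scale, which held for 1663 genes higher (12.8%) and 2254 lower (17.3%), and values of log2 change are from the TPM as deposited. The counts given for gene lists below are to be read against those 12.8% and 17.3% of all tested genes, and some lists lie near them. Depth is unknown because TPM keeps no read number. Across genes, the 2 saline libraries correlated at 0.971 and the 2 LPS libraries at 0.983, against 0.879 to 0.884 between a saline and an LPS library. In these bulk samples fewer cells of a type and less RNA per cell cannot be told apart.

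**Figure D1:**
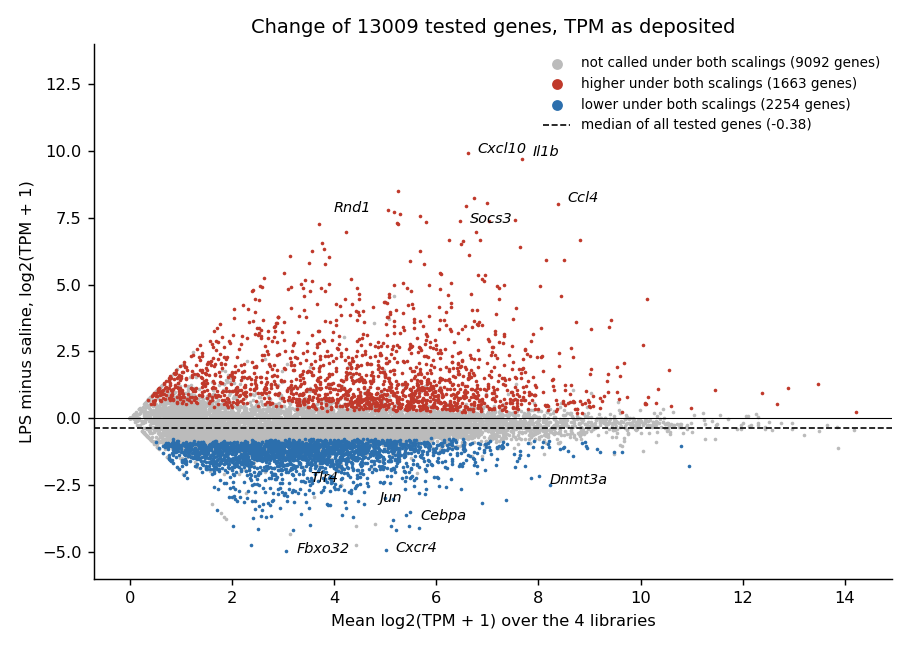
Each point is 1 of 13009 tested genes, with its mean log2(TPM + 1) over the 4 libraries on the x axis and its LPS minus saline difference on the y axis. Red points (1663 genes) reach about 10 above 0 while blue points (2254 genes) stop near -5, and the dashed line is the median of all tested genes, -0.38.

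On the log2(TPM + 1) scale, rises reached larger sizes than falls. A fall on this scale cannot exceed the log2(TPM + 1) value of the gene in saline, while a rise has no such limit. A rise of at least 2 on the log2 scale was seen for 426 genes, of at least 4 for 112 and of at least 6 for 33, against falls of at least 2 for 230 genes, of at least 4 for 10 and of at least 6 for none. Among genes whose mean log2(TPM + 1) over the 4 libraries reached 3, with no overlap between the groups, the 25 largest rises were, in order, Cxcl10, Il1b, Cxcl1, Cxcl2, Tnf, Ccl4, Ifit1, Cxcl3, Rnd1, Tnfsf9, Il1a, Socs3, Acod1, Gbp5, Ccl7, Ptgs2, Edn1, Il27, Ccl2, Mx1, Ccl3, Isg15, Oasl1, Il6 and Ifi205. Together they held 0.0171% and 0.0180% of TPM in the saline libraries and 3.98% and 3.85% in the LPS libraries. The 25 largest falls under the same conditions began with Fbxo32, Cxcr4, Rhov, Arl11, Cd300lb, Tsc22d3, Arhgap25, Sesn1, Ankrd37 and Tmem86a and held 0.279% and 0.283% of TPM in saline and 0.0238% and 0.0203% with LPS. Cytokines and chemokines led the first list, which also held interferon-induced genes (Ifit1, Gbp5, Mx1, Isg15, Oasl1, Ifi205). The second held receptors (Cxcr4, Cd300lb), transcription factors (Cebpa, Tfeb, Lyl1) and regulators of GTPases (Arhgap25, Arhgap19, Rgs2). These genes were chosen for their size of change, so their order and totals are a description.

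Stretches of 6 promoters are shown because the chemokine genes Cxcl1 and Cxcl2, the NF-kB inhibitor gene Nfkbia and the interferon-induced Ifit1 hold different matches to motifs of factors that TLR4 activates, while Cxcl10 and Gbp5 hold matches of more than 1 kind. Each runs 5′ to 3′ toward the RefSeq gene start on the strand of the gene, from RefSeq on GRCm38.p6, and capitals mark matches, on either strand, to the NF-kB consensus, to the interferon-stimulated response element (ISRE, GAAANNGAAA) or to the AP-1 site (TGANTCA).
Cxcl10, minus strand of chr5:92348947-92349112: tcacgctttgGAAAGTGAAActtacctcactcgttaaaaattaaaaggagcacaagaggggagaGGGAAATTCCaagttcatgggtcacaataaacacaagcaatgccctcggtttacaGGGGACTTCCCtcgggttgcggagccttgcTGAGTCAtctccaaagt
Cxcl1, plus strand of chr5:90891164-90891194: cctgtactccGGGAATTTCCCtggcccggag
Cxcl2, plus strand of chr5:90903792-90903822: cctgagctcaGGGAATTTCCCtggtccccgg
Nfkbia, minus strand of chr12:55492657-55492686: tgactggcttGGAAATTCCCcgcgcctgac
Gbp5, plus strand of chr3:142496759-142496876: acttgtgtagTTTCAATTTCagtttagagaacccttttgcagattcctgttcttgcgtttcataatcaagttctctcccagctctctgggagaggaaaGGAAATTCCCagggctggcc
Ifit1, plus strand of chr19:34640775-34640823: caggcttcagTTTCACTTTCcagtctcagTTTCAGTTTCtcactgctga
The Cxcl10 window holds 1 ISRE, 2 separate NF-kB stretches and 1 AP-1 site. Cxcl1 and Cxcl2, neighbouring chemokine genes on chromosome 5, share the same stretch, GGGAATTTCCC, from -71 to -61 and from -97 to -87 relative to their starts, where it matches the NF-kB consensus on both strands. Ifit1 holds 2 ISRE matches and no NF-kB match in the bases before its start, and Gbp5 holds 1 of each in the bases before the start shown.

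The letters were then counted in all genes tested. RefSeq promoter windows, 250 bases before to 50 bases after the start, were matched by symbol for 9180 of 13009 tested genes. The NF-kB consensus was found in 12.2% of these, in 22.8% of the 312 genes with a window that rose by at least 2, in 28.0% of the 82 that rose by at least 4 and in 11.2% of the 169 that fell by at least 2. For ISRE the same shares were 4.22%, 17.3%, 24.4% and 2.37%, and for AP-1 they were 6.49%, 16.0%, 20.7% and 7.10%. The letters TGTTTAC, bound by FoxO factors, were found in 3.22% of all, in 4.81% and 6.10% of the 2 groups that rose and in 3.55% of genes that fell by at least 2. Genes that rose by at least 2 were also split by the direct difference between LPS and IFNb libraries. That difference uses no saline sample but the same 2 LPS libraries, so it is not independent of the rise over saline. Of 198 that were higher with LPS than with IFNb, 26.3% held the NF-kB consensus and 5.56% held ISRE. Of 88 that were lower with LPS than with IFNb, 14.8% held the NF-kB consensus and 45.5% held ISRE. Matches are counts of letters, with at least 1 match per gene on either strand, and say nothing of binding. Some genes have several starts, and only 1 of the 11692 windows of tested genes had overlapping matches of 2 of these motifs. Over all 32851 windows of the table, the NF-kB consensus was found in 8.46%, ISRE in 3.44%, AP-1 in 7.81% and TGTTTAC in 3.65%.

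**Figure D2:**
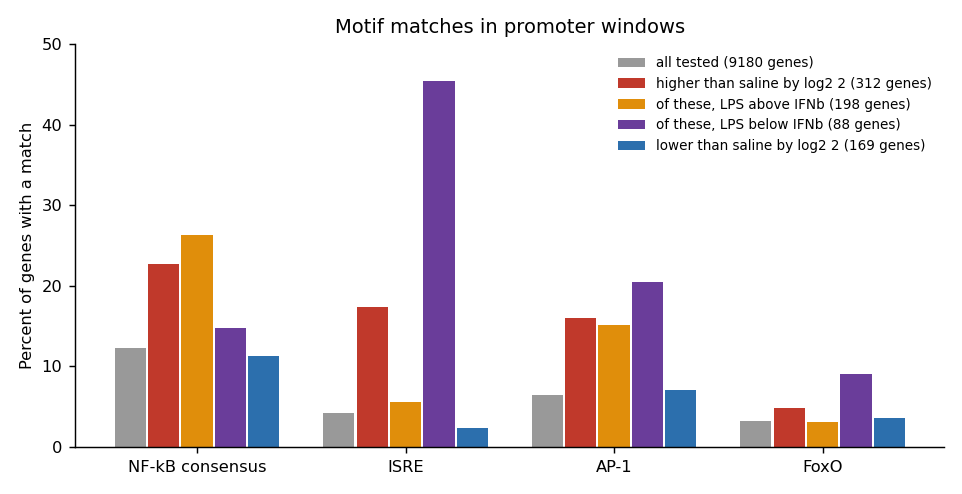
Bars give the percent of genes with at least 1 match to each motif in a promoter window, for all tested genes, for genes that rose or fell by at least 2 on the log2 scale, and for the risers split by LPS against IFNb. The tallest bar is ISRE in risers that were lower with LPS than with IFNb (45.5%), and the NF-kB bar is highest in risers that were higher with LPS than with IFNb (26.3%).

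The LPS receptor complex and its adaptors held more genes that rose than fell. Of 23 listed genes 9 rose and 3 fell, and the median was -0.03 as deposited and 0.42 rescaled. Over all tested genes 12.8% rose and 17.3% fell, so the share that fell was no larger in this list. Cd14, the co-receptor that passes LPS to TLR4, was at 66.7 and 72.9 TPM in saline and 1564 and 1829 TPM with LPS, and Tlr2, the receptor for bacterial lipoproteins, was at 20.9 and 18.4 TPM in saline and 509 and 510.2 TPM with LPS. Every LPS library stood above both saline libraries, by 4.58 ± 0.25 and 4.63 ± 0.10 (adjusted p = 3.07e-05 and 1.10e-06). Tlr4 went the other way, at 44.1 and 39.9 TPM in saline and 12.2 and 10.6 TPM with LPS (adjusted p = 1.30e-04), and Irak4, the kinase that MYD88 recruits first, at 27.7 and 24.8 TPM in saline and 12.3 and 11.1 TPM with LPS. Myd88 (1.85 ± 0.073), Tab2 (1.44 ± 0.086), Tlr1 (1.27 ± 0.15) and Irak3, an inhibitory member of the IRAK family (1.39 ± 0.13), rose. The TLR4 partner Ly96, which encodes MD-2, overlapped between groups, at 73.4 and 53.2 TPM in saline and 69.0 and 53.6 TPM with LPS. The endosomal adaptor Ticam2, at 27.7 and 28.6 TPM in saline and 14.7 and 13.7 TPM with LPS, was lower as deposited and not called after rescaling.

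NF-kB subunits and their inhibitors rose together. Of 22 listed genes 18 rose and none fell under both scalings, with a median of 2.17, rescaled 2.60. The atypical inhibitor Nfkbiz, a nuclear IkB protein that drives secondary genes, was at 4.03 and 5.76 TPM in saline and 361 and 324 TPM with LPS. Nfkbia, the IkB alpha that holds NF-kB in the cytoplasm, was at 42.9 and 49.8 TPM in saline and 1364 and 1530.2 TPM with LPS, and the deubiquitinase Tnfaip3 (A20) at 23.7 and 29.4 TPM in saline and 806 and 819 TPM with LPS. In all 3 the groups lay far apart relative to the spread within them, with differences of 5.88 ± 0.15, 4.94 ± 0.12 and 4.89 ± 0.13 (adjusted p = 1.56e-06, 1.39e-06 and 1.50e-06). Among subunits, Nfkb2 (3.99 ± 0.15) and Nfkb1 (3.16 ± 0.12) rose more than Rel (2.25 ± 0.16), Relb (2.08 ± 0.16) and Rela (1.53 ± 0.18). The inhibitors Nfkbie (4.36 ± 0.12) and Tnip3 (4.17 ± 0.37) also rose. The kinase subunit Chuk was close to level, at 50.8 and 60.6 TPM in saline and 53.1 and 49.7 TPM with LPS (-0.11, adjusted p = 0.486).

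MAP kinases and the DUSP phosphatases that switch them off differed by member. Of 27 listed genes 25 passed the filter on low values, 12 rose and 3 fell. Over all tested genes 12.8% rose and 17.3% fell, so the share that fell was no larger in this list. Dusp2 was at 10.1 and 8.28 TPM in saline and 118 and 132 TPM with LPS and Dusp1 at 23.1 and 27.1 TPM in saline and 155 and 153 TPM with LPS, with no overlap in either gene. Their differences were 3.63 ± 0.14 and 2.58 ± 0.12, and Dusp16 (2.38 ± 0.23) and Dusp14 (2.89 ± 0.28) rose as well. Among the kinases, Mapkapk2, which acts below p38 and stabilizes cytokine mRNA, was at 80.9 and 87.3 TPM in saline and 628 and 627 TPM with LPS (2.89 ± 0.092, adjusted p = 3.09e-06). Mapk14 (p38 alpha) rose by 1.25 and Map3k8 by 1.85, while Mapk8, a JNK, had -0.21 and was not called. Gadd45g fell from 38.1 and 40.6 TPM to 7.59 and 9.04 TPM while its relative Gadd45b rose from 155 and 135 TPM to 502 and 502 TPM.

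The AP-1 proteins and other immediate-early factors showed opposite directions within a family. Of 27 listed 26 were tested, 17 rose and 2 fell, and the 2 that fell were Jun and Fos. Jun was at 125 and 170.3 TPM in saline and 16.2 and 23.9 TPM with LPS and Fos at 22.2 and 29.1 TPM in saline and 9.33 and 8.86 TPM with LPS, so all LPS values lay below all saline values (-2.83 ± 0.24 and -1.39 ± 0.19, adjusted p = 2.06e-04 and 0.00132). Junb was at 51.3 and 66.2 TPM in saline and 397 and 446 TPM with LPS, Maff at 2.81 and 3.98 TPM in saline and 59.1 and 44.5 TPM with LPS and Fosl2 at 7.55 and 18.1 TPM in saline and 69.3 and 100.1 TPM with LPS. These 3 rose, by 2.83 ± 0.14, 3.59 ± 0.19 and 2.72 ± 0.39. Atf3, an early repressor in this pathway, was high in every library, at 605 and 616 TPM in saline and 590.4 and 562 TPM with LPS, not called as deposited (-0.08) and higher after rescaling (0.38). The orphan nuclear receptor Nr4a3 went from 0.493 and 0.922 TPM to 18.7 and 22.4 TPM (3.66 ± 0.18). Its relative Nr4a2 differed more between replicates than between groups, at 1.01 and 17.5 TPM in saline and 12.7 and 30.4 TPM with LPS (adjusted p = 0.339).

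Factors that shorten the life of inflammatory mRNA were also divided. Of 19 listed mRNA decay genes 7 rose and 4 fell. Zc3h12a (Regnase-1), a nuclease that cuts cytokine mRNA, was at 11.4 and 18.3 TPM in saline and 209 and 225 TPM with LPS, and Zfp36 (tristetraprolin) at 48.6 and 65.6 TPM in saline and 292 and 344 TPM with LPS, changes of 3.82 ± 0.20 and 2.47 ± 0.15. The paralogs of Zfp36 fell: Zfp36l2 was at 104 and 180.1 TPM in saline and 21.4 and 21.3 TPM with LPS (-2.62 ± 0.23, adjusted p = 2.48e-04) and Zfp36l1 at 21.01 and 32.1 TPM in saline and 10.4 and 11.9 TPM with LPS (-1.15 ± 0.22). Among SOCS proteins and other JAK-STAT inhibitors 9 of 15 rose and 2 fell. Socs3, which blocks signalling by the IL-6 receptor, was at 4.20 and 7.85 TPM in saline and 1082 and 1191 TPM with LPS, and Cish, an inhibitor of STAT5 signalling, at 0.516 and 0.592 TPM in saline and 128 and 118 TPM with LPS. Both were low in each saline library and over 100 TPM in each LPS library (7.39 ± 0.30 and 6.32 ± 0.20). Socs6 fell from 75.8 and 60.4 TPM to 15.5 and 13.4 TPM (-2.15 ± 0.13).

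Cytokine genes that could be tested rose in several families. A list of IL-6, IL-12 and IL-10 family cytokines also held Il7, Il15 and Ifnb1. Of its 17 listed members 14 passed the filter and these rose, while Il11, Il20 and Il24 did not reach it. The filter asked for 1 TPM in 2 or more of the 8 libraries. Members under 1 TPM in both saline libraries, such as Il12a, Il23a, Il19 and Ifnb1, passed it only through stimulated libraries. For these the rise was largely set by the filter, so the count is a description. Only Il7 lost its call when 1 library was left out, at 0.64 without Saline replicate 1 and 0.58 without LPS replicate 2. The shared IL-12 and IL-23 subunit Il12b was at 0.682 and 0.377 TPM in saline and 130.5 and 54.2 TPM with LPS, Il12a at 0.506 and 0 TPM in saline and 63.5 and 42.8 TPM with LPS and Il23a at 0.0456 and 0.0855 TPM in saline and 86.4 and 57.4 TPM with LPS. LPS replicate 1 was the higher of the 2 LPS libraries for each of these 3. Il6 was at 0.168 and 0.635 TPM in saline and 131 and 129 TPM with LPS and the anti-inflammatory Il10 at 0.323 and 0.152 TPM in saline and 28.3 and 23.2 TPM with LPS (6.57 ± 0.25 and 4.43 ± 0.13). Il19, a relative of Il10, was at 0 and 0.104 TPM in saline and 17.7 and 20.5 TPM with LPS, and the IL-6 family members Lif and Clcf1 rose by 4.46 ± 0.18 and 3.61 ± 0.19. Ifnb1, the gene of interferon beta, was likewise listed at 0 with saline and reached 10.9 and 10.01 TPM with LPS. In the IL-1 family list, which includes the processing genes Casp1, Casp4 and Nlrp3, 10 of 19 listed rose and none fell under both scalings, of 16 tested. The precursor Il1b was at 5.28 and 7.06 TPM in saline and 6242 and 5628 TPM with LPS, and its antagonist Il1rn, which occupies the IL-1 receptor without signalling, at 149 and 178 TPM in saline and 1580.5 and 1737 TPM with LPS. The antagonist was the more abundant of the pair in both saline libraries and the less abundant in both LPS libraries. Il18 had a smaller rise (1.37 ± 0.19), and the receptor Il1r1 was at 3.27 and 3.77 TPM in saline and 3.07 and 3.47 TPM with LPS, with groups that overlapped.

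TNF superfamily ligands included some of the widest differences. Of 26 listed genes 24 were tested, 11 rose and 4 fell. Tnf was at 7.06 and 6.69 TPM in saline and 2238 and 1925 TPM with LPS and Tnfsf9, the ligand of 4-1BB on T cells, at 2.44 and 2.98 TPM in saline and 673 and 732 TPM with LPS. Tnfsf15 went from 0.326 and 0.377 TPM to 131 and 78.5 TPM and Tnfsf4, the OX40 ligand, from 0.0380 and 0.0712 TPM to 39.5 and 24.6 TPM (6.25 ± 0.29 and 4.93 ± 0.25). The ligands Tnfsf12 (-1.02 ± 0.17) and Tnfsf13 (-1.21 ± 0.13) fell. Among colony-stimulating and growth factors 8 of 17 listed rose and 1 fell, of 14 tested. Csf2, which encodes GM-CSF, was listed at 0 in each saline library and reached 26.2 and 26.4 TPM with LPS. Csf2 thus passed the filter only through stimulated libraries. Csf1 rose from 6.10 and 12.8 TPM to 60.2 and 73.8 TPM and the activin subunit Inhba from 1.98 and 1.75 TPM to 64.1 and 47.0 TPM. Edn1, the vasoconstrictor endothelin 1, was at 0 and 0.102 TPM in saline and 172 and 152 TPM with LPS. Vegfa, at 62.2 and 157 TPM in saline and 13.8 and 38.7 TPM with LPS, was lower as deposited (-2.05 ± 0.72) and not called after rescaling, with replicate 2 the higher library in both groups. It was also not called without Saline replicate 2 (-1.38) or without LPS replicate 1 (-1.33).

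Most chemokine genes that could be tested rose. Those under 1 TPM in both saline libraries, such as Cxcl9 and Cxcl11, could be tested only through stimulated libraries. The neutrophil-attracting Cxcl1 was at 0.953 and 1.05 TPM in saline and 761 and 686 TPM with LPS, Cxcl2 at 5.01 and 5.24 TPM in saline and 2094 and 1612 TPM with LPS and Cxcl3 at 1.23 and 1.20 TPM in saline and 493 and 488 TPM with LPS. Together with Cxcl5 these were 4 of 7 listed that rose, and the fifth tested, Pf4, was at 206 and 219 TPM in saline and 199 and 254 TPM with LPS, with overlapping groups, not called as deposited (0.08) and higher after rescaling (0.54). The 3 CXCR3 ligands rose, with Cxcl10 (1.95 and 2.31 TPM in saline and 2901 and 3206 TPM with LPS) far above Cxcl9 (0.465 and 0.637 TPM in saline and 8.56 and 3.27 TPM with LPS) and Cxcl11 (0.108 and 0.189 TPM in saline and 6.51 and 7.41 TPM with LPS), in TPM, which is corrected for length. Cxcl9 was not called without Saline replicate 1 (1.97), Saline replicate 2 (2.13) or LPS replicate 1 (1.46). Of 20 CC and other chemokines 16 were tested and 13 rose. Ccl3 was at 42.5 and 44.5 TPM in saline and 4453 and 4616 TPM with LPS, Ccl4 at 18.1 and 21.4 TPM in saline and 5048 and 5603 TPM with LPS and Ccl9 at 225 and 250.2 TPM in saline and 5489 and 5137 TPM with LPS. Ccl6, at 443 and 511 TPM in saline and 382 and 433 TPM with LPS, and Ccl8, at 48.4 and 13.1 TPM in saline and 35.4 and 7.63 TPM with LPS, were not called, and for Ccl8 replicate 1 was the higher library in each group.

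Among 21 listed chemoattractant receptors 20 were tested, 6 rose and 5 fell, with a median of -0.16 as deposited and 0.16 rescaled. The formyl peptide receptors, which sense bacterial peptides, were the leading rises: Fpr2 was at 1.26 and 2.25 TPM in saline and 66.2 and 78.3 TPM with LPS and Fpr1 at 1.21 and 1.06 TPM in saline and 31.9 and 41.4 TPM with LPS (4.75 ± 0.35 and 4.13 ± 0.24). C5ar1, the complement C5a receptor, rose from 115 and 123 TPM to 340.2 and 342 TPM. Cxcr4, the receptor for CXCL12 on chr1:128588199-128592293, was at 192 and 159.5 TPM in saline and 5.11 and 4.60 TPM with LPS (-4.91 ± 0.16, adjusted p = 3.61e-06). Ccr2, the receptor for the CCL2 that rose in the same libraries, was at 34.1 and 31.5 TPM in saline and 5.45 and 4.15 TPM with LPS (-2.55 ± 0.19), and C3ar1 at 532 and 484 TPM in saline and 243 and 216 TPM with LPS. Cytokine receptors gave 10 of 26 listed higher and 2 lower, of 25 tested. Il15ra rose from 8.61 and 6.71 TPM to 140.3 and 126 TPM and both type I interferon receptor chains rose, Ifnar1 by 1.30 ± 0.093 and Ifnar2 by 0.99 ± 0.10. The 2 receptors that fell were Il6ra, at 21.7 and 32.1 TPM in saline and 4.24 and 3.98 TPM with LPS, and Tgfbr2, at 50.9 and 51.9 TPM in saline and 21.3 and 22.0 TPM with LPS.

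**Figure D3:**
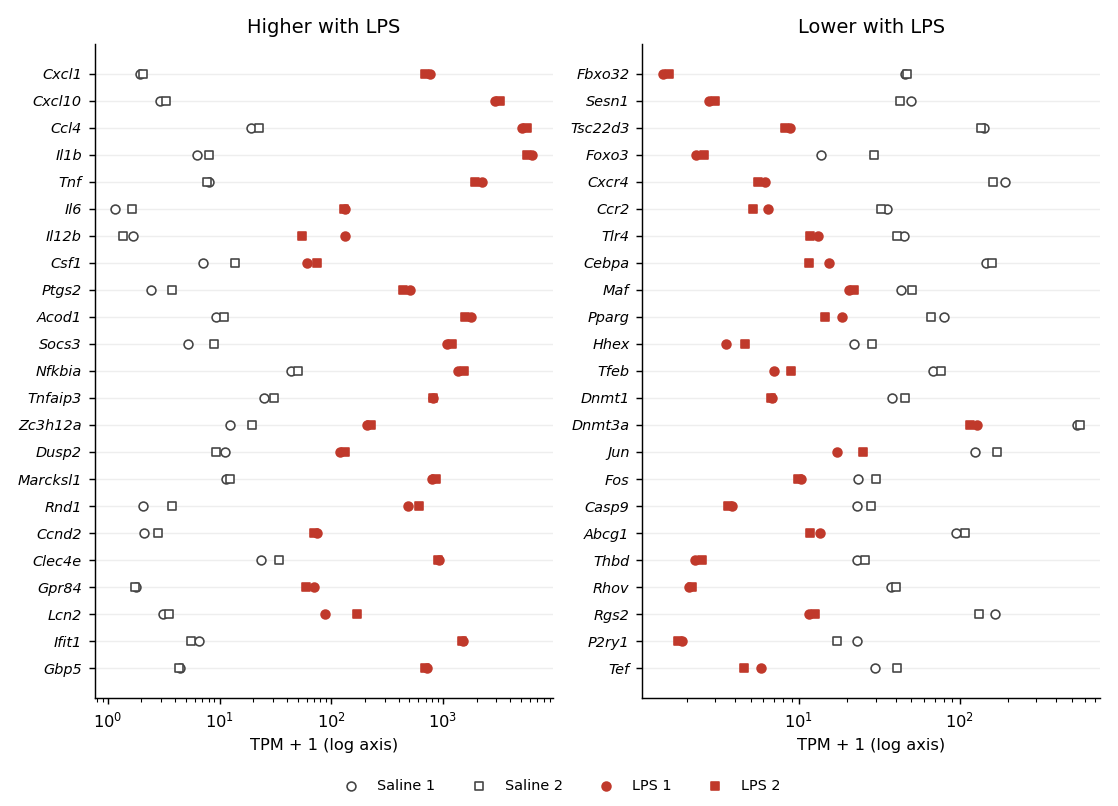
TPM + 1 on a log axis for 23 genes that rose (left) and 23 that fell (right), chosen from those described in the text. Open symbols are the 2 saline libraries, filled red symbols the 2 LPS libraries, circles replicate 1 and squares replicate 2, and for each gene shown the 2 groups do not overlap.

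Interferon-response genes rose with LPS, and most were at lower levels than after IFNb. In the list of antiviral effectors 30 of 32 listed were tested and rose, with a median of 3.46 beside -0.38 for all genes. Ifit1, which binds foreign RNA, was at 5.55 and 4.59 TPM in saline and 1518 and 1487 TPM with LPS, Mx1 at 5.83 and 7.33 TPM in saline and 786 and 755 TPM with LPS and Isg15, a ubiquitin-like modifier, at 13.3 and 8.20 TPM in saline and 1113 and 1213 TPM with LPS. Against the IFNb libraries 27 of these 30 were lower with LPS and 3 were not called. Of 18 listed GTPases of the GBP and IRG families 17 were tested and 14 rose, while 16 were lower with LPS than with IFNb and 1 was higher, with Gbp5 at 3.38 and 3.36 TPM in saline and 714 and 695 TPM with LPS and Igtp at 10.1 and 8.80 TPM in saline and 153 and 165 TPM with LPS. Among IRF and STAT factors and JAK kinases 11 of 20 listed rose and none fell under both scalings, led by Irf1 (37.4 and 35.5 TPM in saline and 596 and 523 TPM with LPS), Stat5a (3.61 ± 0.12), Stat2 (3.39 ± 0.083), Jak2 (3.33 ± 0.078) and Irf7 (3.14 ± 0.25). Reads of near-identical relatives such as Ifit3 and Ifit3b cannot be parted with certainty.

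Set directly against the 2 IFNb libraries, 2158 genes were higher with LPS (16.6%) and 2871 were lower (22.1%). Of the 1663 genes that rose over saline, 954 were also higher than with IFNb, 367 were lower and 342 were not called. The same 2 LPS libraries entered both comparisons, so the 2 are not independent. Cxcl1 and Cxcl3 were at 0.491 and 0.290 TPM and 0.0785 and 0.0725 TPM with IFNb, so that LPS exceeded IFNb by 9.03 ± 0.19 and 8.84 ± 0.26. The difference was larger for Il1b (10.21 ± 0.26) and of similar size for Il1a (8.92 ± 0.15), with Rnd1 at 7.73 ± 0.31. In the opposite direction, Ifit1bl1 was at 1.96 and 1.94 TPM in saline and 26.2 and 17.2 TPM with LPS and at 1633 and 1577 TPM with IFNb, a difference of -6.17 ± 0.17 (adjusted p = 3.45e-06). Ms4a4c, at 9.23 and 6.44 TPM in saline and 173 and 83.7 TPM with LPS, reached 1021 and 1511 TPM with IFNb. Oasl1 and Mx2 did not differ beyond the test between the stimuli (-0.07 ± 0.32 and 0.71 ± 0.26, adjusted p = 0.889 and 0.0778). The NF-kB list lay the other way from the antiviral one, with 18 of its 22 genes higher with LPS than with IFNb and 1 lower. Of 2254 genes that fell below saline, 1092 were lower with LPS than with IFNb, 79 were higher and 1083 were not called. Fbxo32 (-4.60 ± 0.13), Rhov (-4.04 ± 0.12) and Rgs2 (-4.16 ± 0.17) were among those lower with LPS.

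Inflammasome genes split between sensors. Of 22 listed, 21 were tested, 8 rose and 9 fell, with a median of -0.75 as deposited and -0.30 rescaled. Nlrp3, the sensor that responds to potassium efflux, was at 6.13 and 5.82 TPM in saline and 187 and 142 TPM with LPS, Mefv (pyrin) at 6.12 and 6.63 TPM in saline and 157 and 135 TPM with LPS and the peptidoglycan sensor Nod2 at 1.43 and 1.86 TPM in saline and 35.9 and 36.8 TPM with LPS. These 3 rose by 4.55 ± 0.15, 4.31 ± 0.13 and 3.83 ± 0.12. Naip1 was at 7.29 and 7.73 TPM in saline and 0.846 and 1.10 TPM with LPS and Naip5, a sensor of flagellin, at 26.8 and 29.6 TPM in saline and 12.7 and 10.2 TPM with LPS, and both fell, as did Nlrp1b (-1.71 ± 0.29) and the mitochondrial Nlrx1 (-1.66 ± 0.17). Naip genes are close copies of one another, as are Nlrp1 genes, so the split of reads within each family is uncertain. The adaptor Pycard was lower as deposited only, at 55.9 and 53.9 TPM in saline and 30.9 and 32.3 TPM with LPS. Casp4 rose from 22.2 and 24.1 TPM to 244 and 249 TPM, more than Casp1, which rose from 113 and 98.9 TPM to 179.5 and 167 TPM.

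Survival genes were among the rises of the apoptosis list, in which 13 of 29 listed rose and 4 fell, of 28 tested. Bcl2a1a was at 10.9 and 7.99 TPM in saline and 332 and 319.7 TPM with LPS and Bcl2a1d at 46.4 and 42.0 TPM in saline and 883 and 720.0 TPM with LPS, estimates for near-identical copies that share reads. Traf1, which binds TNF receptors, was at 10.6 and 17.3 TPM in saline and 201 and 163 TPM with LPS, and Cflar, the inhibitor of caspase 8, at 55.2 and 87.1 TPM in saline and 479 and 435 TPM with LPS (3.64 ± 0.25 and 2.70 ± 0.22). The initiator caspase Casp9 was at 21.9 and 27.2 TPM in saline and 2.81 and 2.63 TPM with LPS and the BH3-only gene Bmf at 6.45 and 7.18 TPM in saline and 0.938 and 1.12 TPM with LPS, and both fell (-2.77 ± 0.16 and -1.95 ± 0.33). The BH3-only gene Bcl2l11 rose, by 1.64 ± 0.23.

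Metabolic genes changed in a few members of each pathway, beside 12.8% higher and 17.3% lower over all tested genes. Acod1, which makes itaconate from a TCA cycle intermediate, was at 8.32 and 10.01 TPM in saline and 1785 and 1562 TPM with LPS. Of 18 listed genes of itaconate synthesis and the TCA cycle 2 rose and 1 fell: beside Acod1 the citrate synthase Cs rose (0.49 ± 0.077), and Idh1 fell, from 361 and 339 TPM to 107 and 91.5 TPM (-1.81 ± 0.13). Among 22 glycolysis genes 6 rose and none fell under both scalings: the transporters Slc2a6 (6.80 and 7.06 TPM in saline and 229 and 239 TPM with LPS) and Slc2a1 (0.92 ± 0.31), Hk2 (1.94 ± 0.35), Pfkfb3 (1.36 ± 0.34), Pfkp (0.85 ± 0.11) and the regulator Hif1a (48.2 and 49.1 TPM in saline and 234 and 226 TPM with LPS). Of these, Slc2a1 was not called when any 1 of the 4 libraries was left out (0.69 to 1.15) and Pfkfb3 was not called without Saline replicate 1 (1.16). The median of that list was -0.21 as deposited and 0.25 rescaled. In the list of arginine, nitric oxide and tetrahydrobiopterin genes 6 of 15 rose and 1 fell. Nos2, the inducible nitric oxide synthase, was at 0.0741 and 0.116 TPM in saline and 21.9 and 45.3 TPM with LPS, and the arginine transporter Slc7a2 at 8.43 and 16.9 TPM in saline and 141 and 200.4 TPM with LPS (4.89 ± 0.32 and 3.70 ± 0.35). Gch1, which supplies the cofactor of Nos2, rose by 2.03 ± 0.084. Arg1 differed mainly between replicates, at 430.5 and 889.6 TPM in saline and 267 and 811 TPM with LPS. In arachidonate metabolism Ptgs2 (COX-2) was at 1.45 and 2.78 TPM in saline and 505 and 439.5 TPM with LPS and the prostaglandin E synthase Ptges at 2.32 and 4.18 TPM in saline and 33.0 and 45.7 TPM with LPS, while Hpgd, which degrades prostaglandins, fell from 4.14 and 3.19 TPM to 1.27 and 1.07 TPM. These belong to a list with 5 of 22 higher and 2 lower, of 20 tested.

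Genes of metal and redox handling included large single changes. The counts of these lists stand beside 12.8% higher and 17.3% lower over all tested genes. Lcn2, which binds the siderophores of bacteria, was at 2.09 and 2.51 TPM in saline and 87.3 and 169.6 TPM with LPS, and Hamp, the iron hormone hepcidin, at 0.519 and 0.481 TPM in saline and 16.5 and 18.5 TPM with LPS. Both rose (5.22 ± 0.35 and 3.63 ± 0.12), in an iron list with 6 of 20 higher and 2 lower, of 16 tested, whose median was -0.33 as deposited and 0.12 rescaled. The iron exporter Slc40a1, the target of hepcidin, was at 8.03 and 9.22 TPM in saline and 1.81 and 3.19 TPM with LPS, lower as deposited (-1.49 ± 0.47) and not called after rescaling or when any 1 of the 4 libraries was left out (-1.77 to -1.20). Of 12 metallothioneins and zinc transporters 4 rose and 2 fell. The metallothionein Mt2 was at 11.6 and 29.7 TPM in saline and 431 and 1213 TPM with LPS and Mt1 at 172 and 203 TPM in saline and 362 and 738 TPM with LPS, with the higher value in replicate 2 of each group. Mt1 was not called without Saline replicate 1 (1.35), Saline replicate 2 (1.59) or LPS replicate 2 (0.95). Zinc transporters went both ways, with the importer Slc39a14 at 5.86 and 7.45 TPM in saline and 42.6 and 48.3 TPM with LPS and the exporter Slc30a1 at 47.5 and 51.3 TPM in saline and 7.24 and 5.85 TPM with LPS (2.61 ± 0.25 and -2.74 ± 0.14). Of 18 NRF2 and antioxidant genes 4 rose and 2 fell: the cystine transporter Slc7a11 (3.59 ± 0.21), Sod2 (3.45 ± 0.079), Txnrd1 (2.09 ± 0.12) and Srxn1 (0.83 ± 0.15) rose, and Gclc (-1.33 ± 0.13) and the catalase gene fell. Of 23 cholesterol and LXR genes 5 rose and 4 fell, and the count of genes higher was 2 without Saline replicate 1, 1 without LPS replicate 1 and 3 without LPS replicate 2. The cholesterol exporter Abcg1 was at 93.4 and 107 TPM in saline and 12.4 and 10.7 TPM with LPS (-3.01 ± 0.13). Ch25h, which makes an antiviral oxysterol, rose by 2.85 ± 0.25.

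Genes of clotting, matrix and adhesion rose more often than they fell. In the coagulation and fibrinolysis list 9 of 19 rose and 1 fell. The plasminogen activator inhibitor Serpinb2 was at 7.38 and 12.2 TPM in saline and 382 and 516 TPM with LPS, and F3, tissue factor, which starts clotting, was at 3.97 and 3.22 TPM in saline and 53.4 and 63.2 TPM with LPS. The tissue activator Plat rose too (3.23 ± 0.23), while thrombomodulin, Thbd, an anticoagulant surface protein, was the member that fell, at 22.2 and 24.8 TPM in saline and 1.25 and 1.50 TPM with LPS (-3.37 ± 0.22, adjusted p = 7.74e-05). Matrix proteases and inhibitors gave 11 of 31 higher and 1 lower, of 29 tested, with Timp1 at 12.1 and 19.1 TPM in saline and 137 and 223 TPM with LPS and Mmp13 at 26.3 and 28.2 TPM in saline and 311 and 213 TPM with LPS. Mmp9 was not called, at 6.51 and 13.8 TPM in saline and 9.45 and 17.4 TPM with LPS. Of 23 adhesion genes 13 rose and 1 fell, with Icam1 at 17.4 and 19.5 TPM in saline and 831 and 762 TPM with LPS and Vcam1 at 0.864 and 1.09 TPM in saline and 75.7 and 63.2 TPM with LPS. Of 28 genes listed as cytoskeletal regulators, which include the lectin gene Clec2d, 17 rose and 2 fell. Rnd1, a GTP-binding protein that does not hydrolyse GTP, was at 1.05 and 2.78 TPM in saline and 488 and 614 TPM with LPS and Marcksl1 at 10.5 and 11.4 TPM in saline and 788 and 863 TPM with LPS, while the atypical GTPase Rhov was at 36.6 and 39.0 TPM in saline and 1.08 and 1.18 TPM with LPS (7.62 ± 0.31, 6.11 ± 0.12 and -4.19 ± 0.12).

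On the cell surface, more costimulatory and checkpoint genes rose than fell. The balance among scavenger, lectin and phagocytic receptors depended on the scaling. Over all tested genes 12.8% rose and 17.3% fell. Of 16 costimulatory and checkpoint genes 10 rose and 2 fell. Cd40 was at 8.92 and 9.61 TPM in saline and 476 and 408 TPM with LPS, Cd83 at 33.8 and 30.3 TPM in saline and 401 and 397 TPM with LPS and Cd80 at 7.43 and 7.96 TPM in saline and 39.7 and 44.4 TPM with LPS. The checkpoint proteins Vsir (227 and 267 TPM in saline and 84.3 and 84.6 TPM with LPS) and Havcr2 (27.3 and 18.4 TPM in saline and 7.09 and 5.82 TPM with LPS) fell. In limma 0 of 12 genes of MHC class II and its loading were called under either scaling, and 1 as deposited and 3 after rescaling had an unadjusted p under 0.05 (median -0.22, rescaled 0.16), and the class II gene H2-Ab1 was at 243 and 213 TPM in saline and 281 and 214 TPM with LPS. Among 40 scavenger, lectin and phagocytic receptors 36 were tested, 11 rose and 5 fell, with a median of -0.24 as deposited and 0.19 rescaled. In the TPM as deposited alone 11 were higher and 13 lower, and after rescaling alone 13 were higher and 5 lower. Clec4e (Mincle), a receptor for mycobacterial lipid, was at 22.6 and 33.2 TPM in saline and 919 and 892 TPM with LPS. Cd300a was at 221 and 262 TPM in saline and 63.1 and 61.3 TPM with LPS, Cd300lb at 198 and 215 TPM in saline and 9.96 and 12.7 TPM with LPS and Mertk, which takes up dying cells, at 49.4 and 51.6 TPM in saline and 18.5 and 17.1 TPM with LPS. These 3 fell (-1.94 ± 0.14, -4.08 ± 0.13 and -1.46 ± 0.11).

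G protein-coupled receptors and their regulators changed in 23 of 38 listed genes, with 13 higher and 10 lower of 36 tested. The 2 adenosine A2 receptors, which raise cAMP, rose: Adora2a was at 2.36 and 3.09 TPM in saline and 70.1 and 71.9 TPM with LPS and Adora2b at 1.11 and 1.31 TPM in saline and 58.9 and 60.2 TPM with LPS. Gpr84, a receptor for medium-chain fatty acids, was at 0.786 and 0.751 TPM in saline and 68.9 and 58.7 TPM with LPS and the niacin receptor Hcar2 at 0.658 and 0.933 TPM in saline and 54.2 and 59.1 TPM with LPS. The phosphodiesterase Pde4b, which degrades cAMP, was at 4.46 and 5.29 TPM in saline and 86.7 and 80.3 TPM with LPS. The ADP receptor P2ry1 was at 21.8 and 16.2 TPM in saline and 0.865 and 0.772 TPM with LPS, the lysophosphatidic acid receptor Lpar6 at 21.7 and 21.6 TPM in saline and 0.692 and 0.872 TPM with LPS and the G protein regulator Rgs2 at 165 and 132 TPM in saline and 10.5 and 11.7 TPM with LPS. All 3 fell (-3.45 ± 0.19, -3.67 ± 0.14 and -3.62 ± 0.17).

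Transporter genes for amino acids, nucleosides and metals rose in 13 of 20 listed and fell in 2, of 19 tested, with a median of 0.63. Slc3a2, the shared heavy chain of several amino acid exchangers, was at 146 and 144 TPM in saline and 225 and 212 TPM with LPS, and Slc16a10, which carries aromatic amino acids, at 40.3 and 45.9 TPM in saline and 92.1 and 85.6 TPM with LPS. The mitochondrial iron importer Slc25a37 was at 10.6 and 15.3 TPM in saline and 101 and 79.9 TPM with LPS and the nucleoside transporter Slc28a2 at 81.7 and 82.8 TPM in saline and 178 and 177 TPM with LPS. These 4 rose (0.59 ± 0.071, 1.03 ± 0.14, 2.72 ± 0.22 and 1.10 ± 0.065), whereas the lysosomal nucleoside transporter Slc29a3 fell from 104 and 108 TPM to 33.7 and 29.8 TPM. Complement genes gave 5 of 19 listed higher and 2 lower, of 18 tested. Cfb, the protease precursor of the alternative pathway, was at 24.9 and 16.3 TPM in saline and 128 and 107 TPM with LPS. The count of complement genes higher was 3 without Saline replicate 1, without LPS replicate 1 and without LPS replicate 2. In the list of the integrated stress and unfolded protein responses 5 of 23 rose and 1 fell, of 22 tested. Ddit3 (CHOP), a stress-induced transcription factor, was the gene that fell, at 46.2 and 46.2 TPM in saline and 10.7 and 8.33 TPM with LPS, and the chaperone Hspa5 rose by 0.66 ± 0.13. The chaperone genes Hspa1a and Hspa1b also rose, but they are near-identical copies.

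Transcription factors of macrophage lineage and identity were remodelled in both directions. Of 33 listed 32 were tested, 13 rose and 11 fell. Cebpa, which specifies myeloid cells, was at 145 and 158 TPM in saline and 14.3 and 10.5 TPM with LPS, while Cebpb was at 99.9 and 115 TPM in saline and 335 and 438 TPM with LPS and Cebpd at 6.31 and 5.19 TPM in saline and 19.8 and 31.7 TPM with LPS (-3.52 ± 0.17, 1.83 ± 0.17 and 1.96 ± 0.26). With Cebpg, which also fell (-1.84 ± 0.088), the C/EBP family had 2 members that rose and 2 that fell under both scalings. Maf, a leucine zipper factor of tissue macrophages, was at 42.4 and 49.3 TPM in saline and 19.5 and 21.1 TPM with LPS, and Pparg, a lipid-sensing receptor, at 79.1 and 65.4 TPM in saline and 17.5 and 13.5 TPM with LPS. Hhex (-2.64 ± 0.25), Mef2c (-1.55 ± 0.15) and Rxra (-1.83 ± 0.26) fell, while Ets2 (2.64 ± 0.18), Tfec (2.67 ± 0.16) and Hivep3 (2.33 ± 0.26) rose. Spi1, which encodes PU.1, rose slightly, from 294 and 321 TPM to 436 and 429 TPM (0.49 ± 0.086). Tfeb, the master factor of lysosome genes, was at 67.6 and 76.2 TPM in saline and 5.98 and 7.98 TPM with LPS (-3.20 ± 0.27). Of 30 lysosome and autophagy genes that include it, 24 were lower as deposited and 5 after rescaling, with medians of -0.51 and -0.05, and Sqstm1 rose (0.81 ± 0.11).

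Genes linked to FoxO factors and glucocorticoids held several of the deepest falls. Of 33 listed 31 were tested, 13 fell and 5 rose, with a median of -0.73, rescaled -0.41, beside -0.38 and 0.01 for all genes. Without Saline replicate 1 or LPS replicate 1 the count of genes higher was 3. The list was drawn up with the falls of Fbxo32, Tsc22d3, Sesn1, Sgk1 and Cxcr4 already known, so its count is a description. Fbxo32, the ubiquitin ligase atrogin-1 on chr15:58175879-58214932, was at 44.6 and 45.8 TPM in saline and 0.427 and 0.560 TPM with LPS (-4.95 ± 0.13, adjusted p = 1.41e-06). Tsc22d3, the glucocorticoid-induced leucine zipper, was at 140.4 and 136 TPM in saline and 7.80 and 7.17 TPM with LPS, Sesn1, which restrains mTORC1, at 48.8 and 41.3 TPM in saline and 1.76 and 2.01 TPM with LPS, and Arrdc3 at 34.5 and 35.3 TPM in saline and 2.67 and 2.40 TPM with LPS. In each of these the higher LPS value was under 10 TPM and the lower saline value over 30 TPM. The factor Foxo3 itself was at 12.7 and 28.1 TPM in saline and 1.28 and 1.56 TPM with LPS and Foxo4 at 12.7 and 16.3 TPM in saline and 3.87 and 4.03 TPM with LPS, while Foxo1, at 3.08 and 4.01 TPM in saline and 2.61 and 2.20 TPM with LPS, was not called. Klf2, a FoxO1 target in lymphocytes, rose from 7.09 and 10.2 TPM to 17.3 and 24.4 TPM, and the glucocorticoid receptor Nr3c1 rose by 0.44 ± 0.087.

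Clock genes mostly fell and chromatin modifiers moved both ways. Of 18 listed clock genes 16 were tested, 9 fell and 1 rose, with a median of -0.96, rescaled -0.64. Tef was at 28.6 and 39.9 TPM in saline and 4.81 and 3.54 TPM with LPS, Nr1d2 (REV-ERB beta) at 20.4 and 20.3 TPM in saline and 4.66 and 3.54 TPM with LPS and Bhlhe40 at 171 and 214 TPM in saline and 53.8 and 67.5 TPM with LPS. Per1, at 2.89 and 5.99 TPM in saline and 0.560 and 0.442 TPM with LPS, and Dbp, at 2.54 and 2.53 TPM in saline and 0.111 and 0.197 TPM with LPS, were low in all 4 libraries and fell. The member that rose was the repressor Nfil3, at 6.95 and 13.1 TPM in saline and 28.9 and 36.9 TPM with LPS. Of 31 chromatin modifiers 29 were tested, 8 rose and 9 fell. The DNA methyltransferase genes Dnmt3a and Dnmt1 fell, with Dnmt3a at 538 and 558 TPM in saline and 128 and 116 TPM with LPS and Dnmt1 at 37.2 and 44.6 TPM in saline and 5.76 and 5.68 TPM with LPS (-2.16 ± 0.17 and -2.63 ± 0.13). The histone H3K27 demethylase Kdm6b (JMJD3) was at 1.68 and 3.60 TPM in saline and 22.9 and 24.4 TPM with LPS, and its paralog Kdm6a at 11.5 and 11.3 TPM in saline and 5.40 and 5.41 TPM with LPS, so the pair moved apart (2.81 ± 0.30 and -0.95 ± 0.14).

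Cell cycle genes changed without a common direction for proliferation markers. Of 33 listed 32 were tested, 4 rose and 10 fell. Ccnd2 was at 1.12 and 1.82 TPM in saline and 74.0 and 69.2 TPM with LPS, the inhibitor Cdkn1a (p21) at 48.4 and 60.7 TPM in saline and 498 and 429 TPM with LPS and the proliferation marker Mki67 at 1.54 and 1.39 TPM in saline and 19.4 and 19.2 TPM with LPS. Other markers of dividing cells were not called: Top2a was at 4.11 and 6.75 TPM in saline and 3.16 and 3.54 TPM with LPS and Ccna2 at 1.54 and 1.98 TPM in saline and 1.26 and 1.29 TPM with LPS. The replication helicase genes Mcm3 (-1.15 ± 0.13), Mcm2 (-1.06 ± 0.16) and Mcm7 (-1.59 ± 0.18) fell, as did Cdk2 (-1.46 ± 0.16) and Cdk4 (-1.12 ± 0.12).

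**Figure D4:**
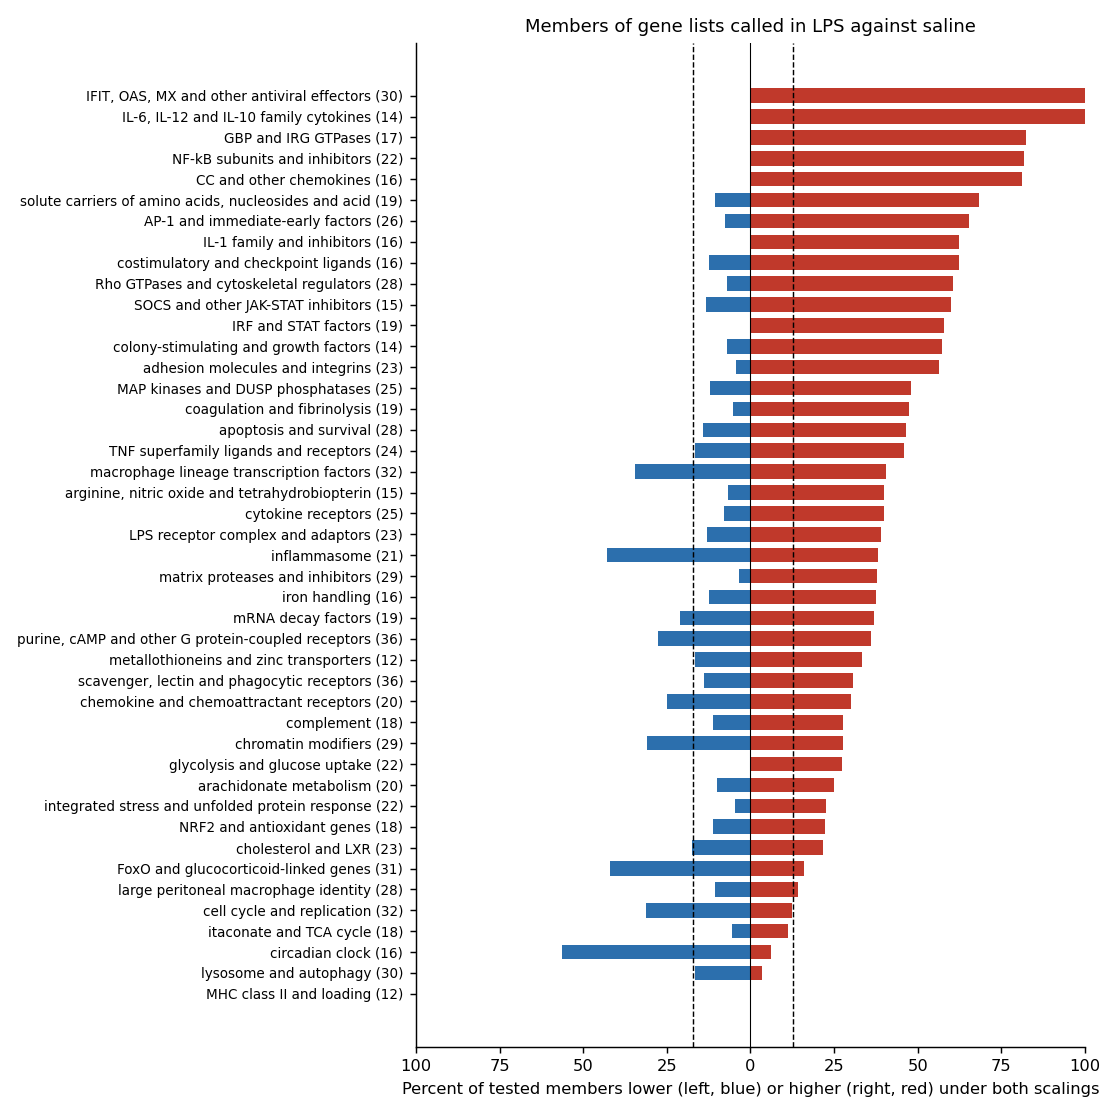
For each gene list with at least 12 tested members (number in brackets), bars show the percent of those members that were higher (red, right) or lower (blue, left) with LPS under both scalings. Dashed lines mark the percent of all tested genes called higher (12.8%) and lower (17.3%), and the clock, inflammasome and FoxO and glucocorticoid lists reach furthest to the left.

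Of 43 tested long noncoding RNAs, 7 were called higher and 11 lower as deposited, and 10 and 8 after rescaling. Over all tested genes the shares were 12.8% higher and 41.3% lower as deposited, and 20.9% and 17.3% after rescaling. The count lower as deposited was thus a smaller share than over all genes. The lincRNA AW112010 was at 36.7 and 27.4 TPM in saline and 388 and 369 TPM with LPS (3.53 ± 0.13, adjusted p = 6.31e-06) and 4930431F12Rik at 1.57 and 7.70 TPM in saline and 97.4 and 110.0 TPM with LPS (4.47 ± 0.50). The snoRNA host gene Zfas1 rose from 37.2 and 42.5 TPM to 112 and 106 TPM, and 1700026F02Rik fell from 51.4 and 78.4 TPM to 11.5 and 3.66 TPM. Values of antisense RNAs are not given, since it is not stated whether strand was used.

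At the level of transcripts, 33346 were tested, and 2652 were higher with LPS (7.95%) and 5352 lower (16.0%), or 3453 (10.4%) and 2116 (6.35%) after rescaling. Without LPS replicate 1 the counts as deposited were 1620 and 2303, and without LPS replicate 2 they were 1706 and 2279. A separate test asked whether the part a transcript takes of its gene changed. It covered 21742 transcripts of 4658 genes and called 124 (0.57%) in 96 genes, and it rested on all libraries: without Saline replicate 1 it called 63, without Saline replicate 2 it called 16, without LPS replicate 1 it called 2 and without LPS replicate 2 it called 1. With only the 4 LPS and saline libraries in the limma fit it called 0, while 2387 transcripts had an unadjusted p under 0.05. The genes below are therefore given mainly by their values. Among 4028 genes with at least 2 tested transcripts and at least 10 TPM in all 4 libraries, 3119 had the same leading transcript within each group, and in 122 of these the leading transcript differed between saline and LPS.

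Noct, a circadian NADP(H) phosphatase gene on chr3:51224447-51251644, gained a transcript that saline libraries nearly lacked. Noct-201 was at 0.0432 and 0.213 TPM in saline and 73.3 and 94.7 TPM with LPS, and it made up 0.125% and 0.562% of the TPM of the gene in saline and 35.6% and 45.3% with LPS (adjusted p = 0.00971). Noct-202, the leading transcript in saline, was at 30.2 and 36.2 TPM in saline and 86.3 and 81.6 TPM with LPS, so that it rose in level while its part of the gene fell. With IFNb the part of Noct-201 was 0% and 0.259%. A like pattern was seen in the scavenger receptor Msr1, where Msr1-202 was at 59.4 and 56.0 TPM in saline and 199 and 205 TPM with LPS and Msr1-201 stayed at 49.6 and 46.6 TPM in saline and 45.8 and 49.2 TPM with LPS (adjusted p of the part = 0.0493). The rise of the gene (1.23 ± 0.094) thus lay in 1 of its 2 main transcripts.

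Cggbp1, Rb1 and Parp11 also changed their mix of transcripts. For Cggbp1 the coding Cggbp1-201 was at 44.1 and 41.0 TPM in saline and 43.9 and 41.7 TPM with LPS while the retained-intron Cggbp1-202 was at 6.81 and 7.04 TPM in saline and 50.7 and 49.7 TPM with LPS, so the rise of the gene came with the noncoding form. Rb1, the retinoblastoma gene on chr14:73183673-73325822, fell as a gene from 107 and 117 TPM to 19.8 and 17.5 TPM (-2.52 ± 0.32). The larger part of that difference in TPM was in the noncoding Rb1-206, at 60.6 and 70.0 TPM in saline and 1.36 and 0.335 TPM with LPS, and the coding Rb1-201 was at 34.8 and 38.3 TPM in saline and 17.9 and 15.4 TPM with LPS. For Parp11, an ADP-ribosyltransferase gene, Parp11-201 went from 59.0% and 51.3% of the TPM of the gene to 13.03% and 9.44%, and Parp11-202 from 4.50e-08% and 4.01e-06% to 22.9% and 24.2%. Parp11-202 was also at 18.7% and 18.7% with IFNb. Nfkbiz was too low in saline for the test of parts, and in it Nfkbiz-203 was at 4.17% or less of the gene in saline and at 29.8% and 28.4% with LPS. How reads are divided among overlapping transcripts is an estimate by the authors' software.

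**Figure D5:**
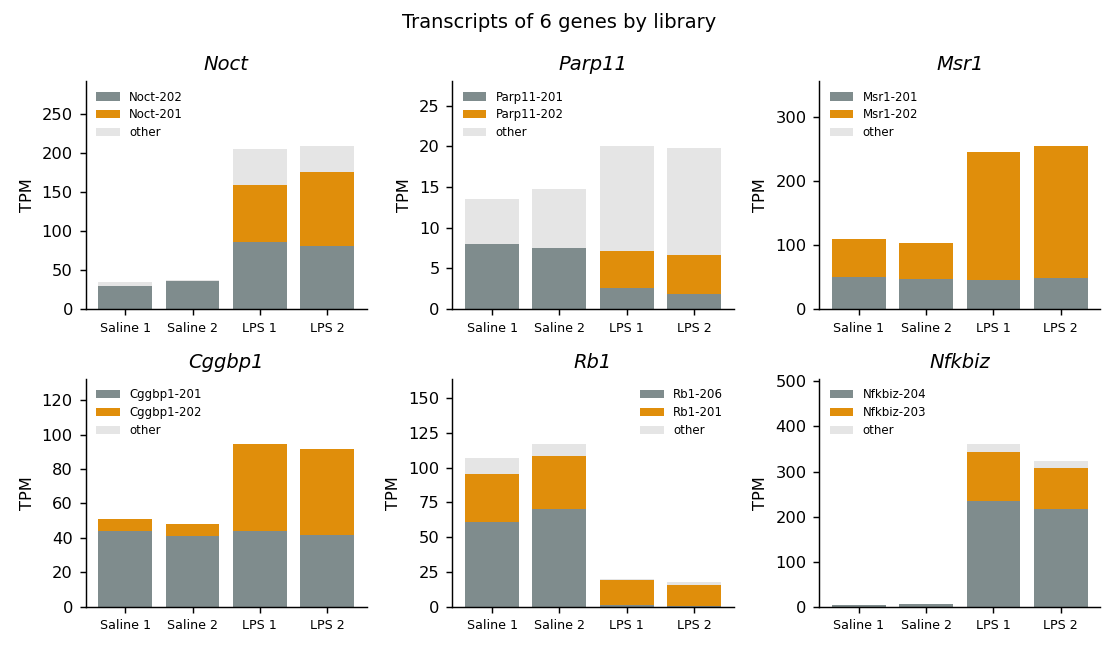
Stacked bars give the TPM of named transcripts (grey and orange) and of the other transcripts of the same gene (pale) in each of the 4 libraries, for 6 genes. Orange segments of Noct-201, Parp11-202, Msr1-202, Cggbp1-202 and Nfkbiz-203 grow with LPS while the grey Rb1-206 shrinks, and both libraries of a group look alike.

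The labelled cell type was checked against markers, whose counts stand beside 12.8% higher and 17.3% lower over all tested genes. The macrophage genes Adgre1 (287 and 243 TPM in saline and 307 and 267 TPM with LPS), Cd68 (3367 and 2851 TPM in saline and 2719.9 and 2694 TPM with LPS) and Lyz2 (17557 and 15340.0 TPM in saline and 13515 and 12856 TPM with LPS) were high in every library. Of 8 macrophage markers 1 rose, Cd14, and 1 fell, Mertk. Markers of resident large peritoneal macrophages differed widely in level. Gata6 was at 1.13 and 1.75 TPM in saline and 0.862 and 2.11 TPM with LPS and Timd4 at 0.427 and 0.549 TPM in saline and 1.62 and 1.29 TPM with LPS, while Cd9 was at 1237 and 1102 TPM in saline and 1098 and 1107 TPM with LPS and made up most of the sum over the 8 markers, 1279 and 1162 TPM in saline and 1131 and 1153 TPM with LPS. Of the 8, Garnl3 rose, a call that was lost without LPS replicate 2 (0.67). In a wider list of 30 identity genes of these cells 4 rose and 3 fell, of 28 tested, with 2 higher without Saline replicate 1, 1 higher without LPS replicate 2 and medians of -0.22 and 0.18. Of 8 markers of monocytes and small peritoneal macrophages Ly6c2, Irf4 and Vcan rose and Ccr2 fell. Irf4 was not called when any 1 of the 4 libraries was left out (0.35 to 0.47), and Ly6c2 not without Saline replicate 2 (0.84) or LPS replicate 1 (0.84).

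Of 10 neutrophil markers 6 were tested and 1 rose, S100a8, from 70.8 and 63.5 TPM to 113 and 115 TPM, with summed levels of 302 and 386 TPM in saline and 258 and 360.2 TPM with LPS. The defining neutrophil genes that did not reach the filter were Ly6g, Ngp, Camp and Ltf. Of 8 B cell markers Cd79b fell and none rose, with summed levels of 365 and 354 TPM in saline and 244 and 311 TPM with LPS. Gzmb rose among 3 tested NK cell markers of 6 listed, and Zbtb46 among 6 dendritic cell markers. In limma 0 of 6 T cell, 5 mast cell and 7 mesothelial and fibroblast markers that were tested were called under both scalings, and 0 of them had an unadjusted p under 0.05. Of 3 tested eosinophil markers 0 were called under both scalings in limma, 2 were lower as deposited, and the same number had an unadjusted p under 0.05. Summed mesothelial and fibroblast markers were at 41.6 and 126.8 TPM in saline and 48.1 and 113.9 TPM with LPS, higher in replicate 2 of each group. The part that these cells have in the results was not tested.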

How the data were processed

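Macrophage RNA of 8 mouse libraries was measured by RNA-seq, in 4 groups of 2. TPM values of 88198 Ensembl transcripts per library were deposited by the authors. Per the submitters' processing notes they were made with kallisto against mm10. Trimming, the strand setting and the version of kallisto were not given in the sources used here. TPM keeps no read number, so the depth per library and the precision it gives are unknown. No step that corrects for composition is recorded, so a rise of some genes lowers the TPM of the others.

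From these values, 86119 transcripts were matched to GENCODE M21 (GRCm38), and their TPM were summed into 30284 genes. The 2079 that were not matched held 1.01% to 1.95% of TPM and were left out. The 13009 genes that reached 1 TPM in 2 or more of the 8 libraries were tested on log2(TPM + 1) with limma 3.58.1 in R 4.3.3. The fit used all 8 libraries, 1 mean per group and a trended prior variance, with 4 residual degrees of freedom, two-sided p and Benjamini-Hochberg adjustment, and genes were called at an adjusted p under 0.05. Transcripts were tested in the same way, and transcript parts as log2 of a transcript against the rest of its gene, for genes of at least 5 TPM in all libraries. Grouping followed the treatment in the labels. Replicate numbers were not used as pairs in the main test.

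The comparison, the gene lists and the marker lists were chosen with earlier results of these data known, and no list was tested as a set. Named genes were the 25 largest rises and falls of genes called under both scalings (mean log2(TPM + 1) of 3 or more, no overlap, no predicted gene), members of the lists, called long noncoding RNAs whose mean log2(TPM + 1) reached 2, and called transcripts whose part of a gene moved by at least 20 percentage points. On simulated data for LPS minus saline with 13009 genes, the test recovered 54 of 100 genes changed by log2 1, 86 of 100 by log2 2 and 97 of 100 by log2 4, with 8 false calls. For transcripts (33346) it recovered 15, 40 and 78 of 100, and for transcript parts (21742) 0, 31 and 82 of 100. For LPS minus IFNb (13009 genes) it recovered 58, 88 and 97 of 100. Each simulation changed only 100 features per size and held no shift of scale between libraries, while 7032 genes were called in the data for LPS minus saline. The recovery and false calls in the data can therefore differ from these numbers. Alternatives covered scaling, pseudocount, filters, thresholds, libraries in the fit, a replicate block and each library left out.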

Additional observations from a re-analysis of the deposited data

How the results depend on the processing

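Of 279 named genes, 244 kept their call (higher, lower or not called) under each alternative run for them. The 25 largest rises, the 25 largest falls and the called long noncoding RNAs were chosen as called under both scalings. For them median-ratio scaling could not change the call, and large changes also pass stricter thresholds more easily. The count therefore does not measure how stable the calls of all tested genes are. The alternatives covered scaling, composition, pseudocount, filters, thresholds, libraries in the fit, block and each library left out. A gene not called in either fit counted as kept even if its sign differed, as for Arg1 (-0.41 as deposited, 0.05 with median-ratio scaling). All 14 alternatives could be run for 259 of the named genes and 13 for the other 20. Scaling moved the balance of higher and lower calls: of 7032 genes called, the 5368 lower became 2254 and the 1664 higher became 2718 with median-ratio scaling, and 3916 and 1984 with upper-quartile scaling. At adjusted p under 0.01 there were 4639 genes, 3416 of them lower, and with a minimum change of log2 1 there were 3028, with 973 higher and 2055 lower. With only the 4 LPS and saline libraries in the fit 5826 genes were called, 1417 higher and 4409 lower. Leaving out 1 library gave 5300 to 6529 genes, 1355 to 1698 higher and 3935 to 5065 lower. For transcripts, 8004 in all, the fit of only the 4 libraries gave 3747 (1627 higher, 2120 lower), adjusted p under 0.01 gave 3327 (1508 and 1819), median-ratio scaling gave 2116 lower, a minimum change of log2 1 gave 3298 lower, and leaving out 1 library gave 3923 to 5944 (1620 to 2423 higher, 2279 to 3797 lower). Transcript parts, 124 called, gave 482 with no filter, 0 with only the 4 libraries (limma, with 2387 at unadjusted p under 0.05), 18 at adjusted p under 0.01 and 1 to 63 with 1 library left out. LPS against IFNb, 5029 genes, gave 3144 at adjusted p under 0.01 (1311 higher, 1833 lower) and 2361 with a minimum change of log2 1 (962 higher, 1399 lower), and leaving out 1 library gave 1423 to 1519 higher and 1943 to 2092 lower. Median-ratio scaling turned the direction of 3 named genes that were called in at least 1 of the 2 fits, among them Atf3 (0.38) and Lyz2 (0.15). The cause of these differences was not tested, except that a stricter threshold on the same fit leaves fewer calls by construction. With the replicate block 1619 genes were higher and 5147 lower, and the block left 25 transcript parts called. Deviations of same-numbered libraries correlated at 0.141 between saline and LPS and from -0.156 to 0.126 for the other pairs of groups, and with 2 pairs this does not show that the numbers pair the samples. The read depth behind each TPM value is unknown, so its counting error could not be given.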
